A study of Mus musculus with 4 samples.

Results

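The genes described here are 10 regulators of the step from G1 into DNA replication in dividing cells: the D-type cyclin genes Ccnd1, Ccnd2 and Ccnd3, the E-type cyclin genes Ccne1 and Ccne2, the cyclin-dependent kinase (CDK) inhibitor genes Cdkn1b, Cdkn1c and Cdkn2c, and the pocket protein genes Rb1 and Rbl1. They were taken by name, with every probe set that the array's annotation gives to one of them alone. All 10 were found among the 18194 named genes of the array, with 26 probe sets between them. Each gene is represented by its brightest probe set, judged by mean log2 signal across the 4 arrays. A gene was compared when this mean was no lower than that of the median probe set, which corresponds to a signal of 50.9. This held for 9 of the 10 genes and for 21 of the 26 probe sets, and Cdkn1c lay below it.

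The cells were 3T3-L1, a line of mouse embryonic fibroblasts that can be turned into fat cells, grown in 25 mM glucose with 10% serum. A first culture received an siRNA against aof2, the former name of Kdm1a, which encodes the histone demethylase LSD1. Another received an siRNA against rfk, the gene of riboflavin kinase, which makes a flavin cofactor, and a further one had tranylcypromine, a small molecule that inactivates LSD1 and monoamine oxidases, added to the induction medium. The control culture received the siRNA siGL3. The siRNAs were given 24 h before induction. All 4 cultures, the control included, were induced with insulin, dexamethasone and isobutylmethylxanthine and harvested 24 h later, and each gave 1 array. For the tranylcypromine culture the labels name no siRNA and no dose, so the compound and a possible lack of transfection cannot be told apart. With 1 array per culture there was no test, and "higher" and "lower" refer to these arrays.

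D-type cyclins bind CDK4 and CDK6, and E-type cyclins bind CDK2. Both kinds of complex phosphorylate the pocket proteins, which then release E2F transcription factors and let genes of DNA replication be transcribed. The inhibitors p27 and p57, encoded by Cdkn1b and Cdkn1c, bind cyclin-CDK complexes, while p18, encoded by Cdkn2c, binds CDK4 and CDK6. Confluent 3T3-L1 cells return to the cell cycle after hormonal induction, a phase known as mitotic clonal expansion, in which p27 protein is degraded and the pocket protein p130 gives way to p107, the product of Rbl1.

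The targeted genes were low where their siRNA was used: Kdm1a was at 19.5% of control in the aof2 siRNA array and Rfk at 27.0% in the rfk siRNA array. All 7 preadipocyte markers reached the filter, with summed signals of 77759 (aof2 siRNA), 76400 (rfk siRNA) and 76460 (tranylcypromine), against 71375 in control. Vim and Col1a2 were the brightest of them. Pdgfra, Dlk1 and Vim were above control in each treated array, and Col1a2 and Thy1 were mixed. Below it in each were Col1a1, at log2 differences of -0.55, -1.01 and -0.98, and Pdgfrb, at -0.06, -0.37 and -0.30. Of 7 measured adipocyte markers 4 did so, namely Pparg, Cebpa, Fabp4 and Lpl, while Adipoq, Cidec and Cd36, markers of mature fat cells, did not, and Adipoq lay between 4.32 and 22.01. These mature markers were thus near absent from the cells labelled as differentiating adipocytes. The summed adipocyte signal was 6372, 6856 and 5836 in the aof2 siRNA, rfk siRNA and tranylcypromine arrays, against 8950 in control, and its part in the differences below was not tested. Among the adipocyte markers above the filter, Fabp4 and Pparg were below control in each treated array, Cebpa was above it in each, and Lpl was mixed. Macrophage, endothelial, epithelial and muscle markers reached the filter in 1 of 6, 1 of 5, 2 of 5 and 1 of 5 genes. Their summed signals spanned 209 to 299, 61.2 to 117, 368 to 748 and 117 to 186 over the 4 arrays. The epithelial sum was 619, 387 and 748 in the aof2 siRNA, rfk siRNA and tranylcypromine arrays, against 368 in control, mostly through Krt19, at 267, 101 and 444 against 100.1. Differences of the 24 poly-A control probe sets, whose RNA is added before labelling, averaged 0.29, 0.17 and -0.01 on the log2 scale, and their part in the results was not tested.

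Differences of these genes from control were small on the whole, and the genes that stood apart were cyclin D1, the E cyclins and p27. Of the 9 compared genes 0 differed at least 2-fold from control in any of the 3 comparisons. Over all 10788 genes compared, 2.15% did so with aof2 siRNA, 1.73% with rfk siRNA and 3.18% with tranylcypromine. At 1.5-fold the aof2 siRNA array had 2 of the 9, Ccne1 and Ccne2, both lower, where 6.26% of all genes compared were that much higher and 2.88% that much lower. The rfk siRNA array had 0 of the 9, where 3.92% of all genes were that much higher and 3.8% that much lower. The tranylcypromine array had 3 of the 9: Ccnd1 was higher, and Ccne2 and Cdkn1b were lower, where 7.48% of all genes were that much higher and 4.77% that much lower. All 9 genes are bright, with mean signals above the 75th percentile of 414. Among the 6873 bright genes 4.2%, 3.19% and 6.31% passed 1.5-fold in either direction with aof2 siRNA, rfk siRNA and tranylcypromine. In bulk RNA a lower transcript signal per array does not separate fewer cells in a phase of the cycle from less RNA per cell.

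**Figure D1:**
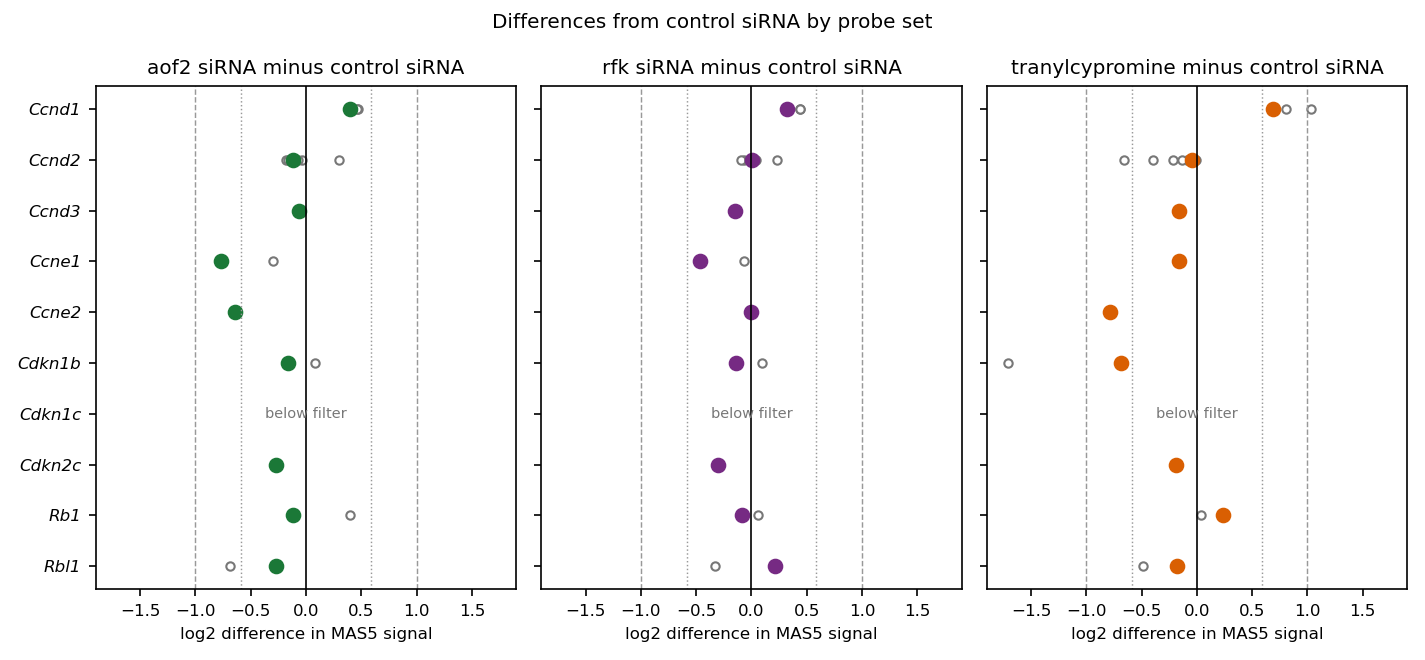
Log2 difference in MAS5 signal from control siRNA (x axis) for each gene (rows) in the aof2 siRNA, rfk siRNA and tranylcypromine arrays. Filled circles are the brightest probe set of a gene and open circles its other probe sets that reached the filter; dotted lines mark 1.5-fold and dashed lines 2-fold. Filled circles beyond the dotted lines are Ccne1 and Ccne2 with aof2 siRNA, and Ccnd1, Ccne2 and Cdkn1b with tranylcypromine.

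On their brightest probe sets most of the genes lay below control in each treated array. With aof2 siRNA 8 of 9 did, with a median log2 difference of -0.16, against -0.004 for all genes compared, of which 50.7% were below control. With rfk siRNA it was 6 of 9 and a median of -0.09, against -0.009 for all genes, of which 51.5% were below control. With tranylcypromine it was 7 of 9 and a median of -0.16, against -0.02 for all genes, of which 52.0% were below control. This direction was not kept with the siRNAs on the next brightest probe set, which 6 genes had above the filter. Then 3 of 6 were below control with aof2 siRNA (median 0.02), 2 of 6 with rfk siRNA (0.05) and 4 of 6 with tranylcypromine (-0.12). These 6 are only part of the 9 genes, so the change mixes another probe set with fewer genes. As a measure of how far probe sets of a single gene disagree, over 5228 genes with several probe sets above the filter, the probe sets of a gene lay apart by a median of 0.31, 0.29 and 0.34 on the log2 scale in the aof2 siRNA, rfk siRNA and tranylcypromine comparisons. The 3 comparisons share the control array, so an error in it would move all of them together.

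**Figure D2:**
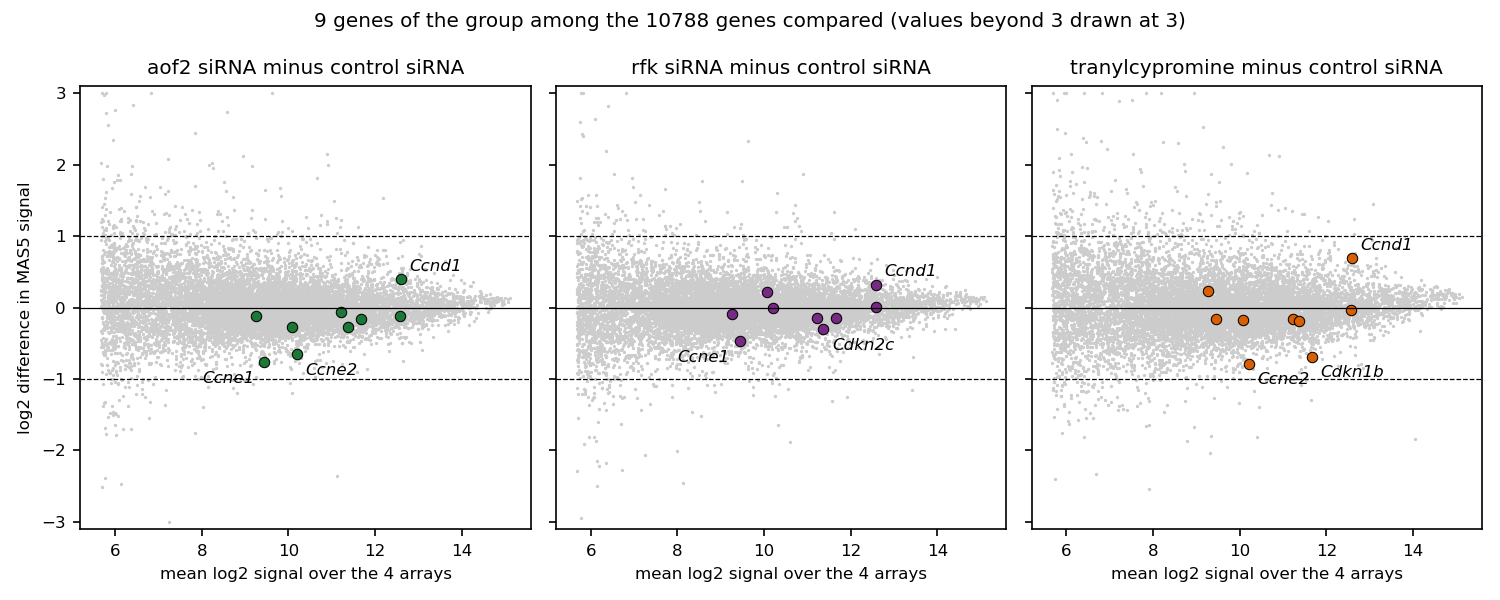
Log2 difference from control siRNA (y axis) against mean log2 signal over the 4 arrays (x axis) for all 10788 genes compared (grey) and the 9 genes of the group (coloured), in the aof2 siRNA, rfk siRNA and tranylcypromine arrays. Dashed lines mark 2-fold, and genes of the group at least 0.3 from control are named. With tranylcypromine Ccnd1 lies above, and Ccne2 and Cdkn1b below, most genes of similar brightness.

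Cyclin D1, the D-type cyclin through which growth factor signals commonly reach CDK4 and CDK6, was highest with tranylcypromine and lowest in control. Its brightest probe set had signals of 6378 with aof2 siRNA, 6024 with rfk siRNA and 7788 with tranylcypromine, against 4830 in control. The log2 differences were 0.40, 0.32 and 0.69, and the signal with tranylcypromine was 1.61-fold that of control. All 3 Ccnd1 probe sets gave the same order of the arrays. The one with signals of 4269, 4172 and 5379 in the treated arrays, against 3086 in control, gave 0.47, 0.43 and 0.80, and the dimmest, with 3596, 3535 and 5319 against 2607, gave 0.46, 0.44 and 1.03. That last difference is 2.04-fold, so tranylcypromine passed 2-fold on 1 of the 3 probe sets. Both siRNA arrays differed from each other by at most 0.08 on the log2 scale on these probe sets. Of all genes compared, 94.5% had a lower difference than Ccnd1 with tranylcypromine, and 88.2% had one with either siRNA.

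Cyclins D2 and D3 were nearly level. Ccnd2, whose product is also a partner of CDK4 and CDK6, had signals of 5806, 6296 and 6110 with aof2 siRNA, rfk siRNA and tranylcypromine, against 6285 in control, a spread of 1.08-fold between the highest and the lowest array. Its 7 probe sets all reached the filter, and 6 of them lay between -0.18 and 0.04 with the siRNAs. With tranylcypromine all 7 were at or below control, by up to -0.66 on the dimmest, which had signals of 322, 307 and 166 in the treated arrays and 262 in control. Ccnd3 had signals of 2432, 2300 and 2276 with aof2 siRNA, rfk siRNA and tranylcypromine, against 2545 in control, with log2 differences of -0.07, -0.15 and -0.16. The higher cyclin D1 signal with tranylcypromine thus had no counterpart in the other D-type cyclins on their brightest probe sets.

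**Figure D3:**
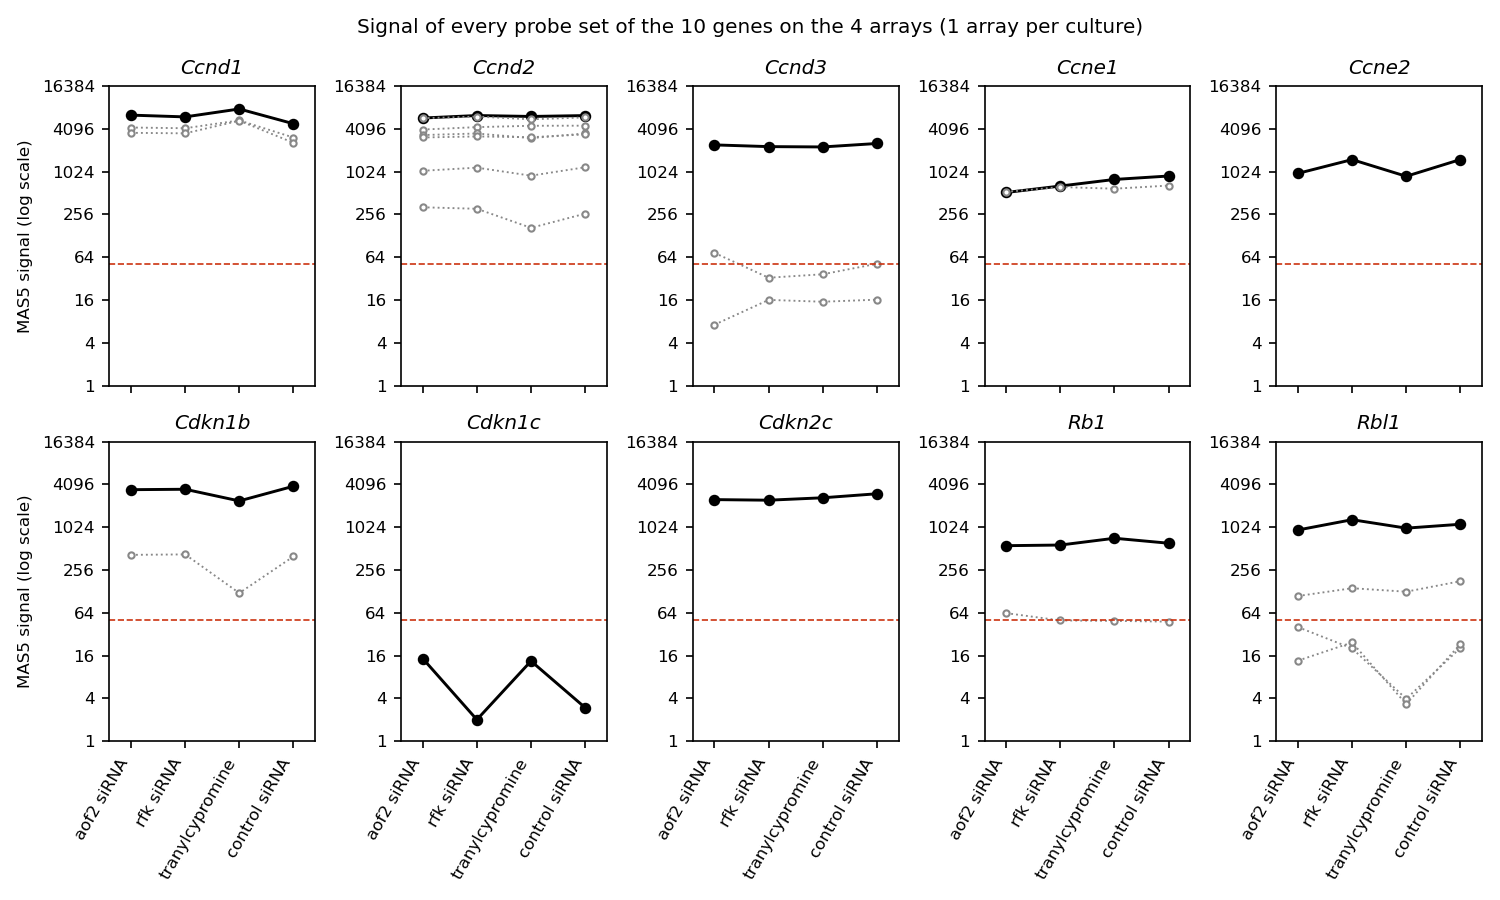
MAS5 signal (y axis, log scale) of every probe set of the 10 genes on the aof2 siRNA, rfk siRNA, tranylcypromine and control siRNA arrays (x axis). Black lines join the brightest probe set of a gene and grey dotted lines its other probe sets; the red dashed line is the filter at a signal of 50.9, and lines only guide the eye. Cdkn1c stays below the filter on all 4 arrays, and Cdkn1b dips with tranylcypromine on both of its probe sets.

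The E cyclins, which activate CDK2 at the start of DNA replication, were the genes of the group furthest below control with aof2 siRNA. Ccne2 had signals of 967 with aof2 siRNA, 1511 with rfk siRNA and 880 with tranylcypromine, against 1513 in control. The arrays fell into a high pair, rfk siRNA and control, and a low pair, aof2 siRNA and tranylcypromine. The log2 differences were -0.65, -0.002 and -0.78, so that Ccne2 was 1.57-fold lower with aof2 siRNA and 1.72-fold lower with tranylcypromine. Only 2.12% and 2.37% of all genes compared were lower than Ccne2 in these comparisons. Ccne2 has 1 probe set, so there was no second measurement on the same array.

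Ccne1 gave a less even picture. Its brightest probe set, 1441910_x_at, had signals of 521 with aof2 siRNA, 642 with rfk siRNA and 794 with tranylcypromine, against 888 in control, with log2 differences of -0.77, -0.47 and -0.16. The suffix of its name marks probes that may also match other transcripts. The other probe set, 1416492_at, had signals of 531, 621 and 589 in the treated arrays, against 652 in control, with log2 differences of -0.29, -0.07 and -0.15. Both put the aof2 siRNA array lowest and the control array highest, but only the first passed 1.5-fold.

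A RefSeq window of the Ccne1 promoter is shown because Ccne1 was the gene of the group furthest below control with aof2 siRNA. The window of Cdkn1b is shown with it because Cdkn1b passed 1.5-fold with tranylcypromine, and that of Rbl1 because it is a gene known to be under E2F control. Windows run from 250 bases before to 50 bases after the transcription start in GRCm38.p6, and 5 of the 10 genes matched. They were searched on both strands for E2F sites, in the forms TTTCCCGC, TTTCGCGC, TTTGCCGC and TTTGGCGC, for the GC box GGGCGG and for CCAAT, and capitals mark the matches. E2F forms were found in 2.26% of all 32851 windows, the GC box in 35.7% and CCAAT in 37.4%. In the 3 windows shown, 0 matches overlapped another. The sequences read 5′ to 3′ on the strand of the gene, chr7:38107441-38107740 (minus) for Ccne1, chr6:134920151-134920450 (plus) for Cdkn1b and chr2:157204485-157204784 (minus) for Rbl1.
Ccne1: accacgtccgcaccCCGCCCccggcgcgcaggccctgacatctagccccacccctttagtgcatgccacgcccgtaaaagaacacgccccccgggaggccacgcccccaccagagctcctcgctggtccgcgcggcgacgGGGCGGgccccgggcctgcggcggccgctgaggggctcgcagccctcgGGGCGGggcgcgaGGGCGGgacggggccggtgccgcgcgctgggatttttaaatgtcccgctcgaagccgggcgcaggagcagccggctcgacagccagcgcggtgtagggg
Cdkn1b: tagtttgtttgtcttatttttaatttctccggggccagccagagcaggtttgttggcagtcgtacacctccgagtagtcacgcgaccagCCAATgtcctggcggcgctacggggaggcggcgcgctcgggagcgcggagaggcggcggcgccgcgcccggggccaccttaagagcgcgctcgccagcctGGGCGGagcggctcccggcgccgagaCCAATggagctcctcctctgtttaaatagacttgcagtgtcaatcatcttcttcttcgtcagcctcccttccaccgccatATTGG
Rbl1: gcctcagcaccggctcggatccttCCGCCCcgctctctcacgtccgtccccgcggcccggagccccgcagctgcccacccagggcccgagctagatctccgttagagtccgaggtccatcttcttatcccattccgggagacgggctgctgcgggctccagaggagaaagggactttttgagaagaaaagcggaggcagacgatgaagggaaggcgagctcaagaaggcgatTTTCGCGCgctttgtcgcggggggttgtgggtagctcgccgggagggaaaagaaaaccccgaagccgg
The Ccne1 window held 4 GC boxes, the nearest with its first base 49 bases before the start, and 0 of the E2F forms. The Cdkn1b window held 1 GC box and 3 CCAAT matches. The Rbl1 window held the only E2F form among the windows of these genes, TTTCGCGC, with its first base 18 bases before the start, and 1 GC box. These are matches of letters and not measured binding. Only the E2F forms named were searched for, so a window with 0 of them may hold E2F sites of other forms.

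Among the CDK inhibitors, p27 was the one that stood apart, and only with tranylcypromine on the 1.5-fold rule. The brightest Cdkn1b probe set, 1434045_at, had signals of 3453 with aof2 siRNA, 3500 with rfk siRNA and 2398 with tranylcypromine, against 3859 in control. The log2 differences were -0.16, -0.14 and -0.69, which puts tranylcypromine 1.61-fold below control. The other probe set, 1419497_at, had signals of 418, 424 and 121 in the treated arrays, against 397 in control, and log2 differences of 0.08, 0.10 and -1.71. On that probe set the signal with tranylcypromine was 3.27-fold below control. Both probe sets had tranylcypromine lowest and the other 3 arrays close together, but the size of the difference depended on the probe set. Relative to aof2 siRNA, where Kdm1a mRNA was low, Cdkn1b with tranylcypromine stood at -0.53 and -1.78 on these probe sets, and relative to rfk siRNA at -0.55 and -1.81. These last differences use no control array.

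Cdkn2c, the gene of the CDK4 and CDK6 inhibitor p18, had signals of 2504, 2456 and 2656 with aof2 siRNA, rfk siRNA and tranylcypromine, against 3024 in control. All treated arrays were below control, by log2 differences of -0.27, -0.30 and -0.19, each less than the typical gap between probe sets of a gene or close to it. Cdkn1c had signals of 14.6, 2.01 and 13.4, against 2.97 in control. Values this far below the filter scatter widely in MAS5, so no direction was read from them for p57.

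The pocket protein genes stayed within 1.5-fold of control on their brightest probe sets, while a dimmer Rbl1 probe set passed it with aof2 siRNA. Rb1, the gene of the retinoblastoma protein, had signals of 563 with aof2 siRNA, 575 with rfk siRNA and 716 with tranylcypromine, against 610 in control, with log2 differences of -0.12, -0.09 and 0.23. A dim second probe set, at 48.1 to 63.3, gave 0.40, 0.06 and 0.04, so the sign with the siRNAs was not shared between probe sets. Rbl1, the gene of p107, had signals of 936, 1306 and 994 in the aof2 siRNA, rfk siRNA and tranylcypromine arrays, against 1127 in control. The log2 differences were -0.27, 0.21 and -0.18. A further probe set above the filter, with signals of 110, 142 and 127 against 178, gave -0.69, -0.33 and -0.49. On it Rbl1 was 1.62-fold lower with aof2 siRNA. Both put Rbl1 below control with aof2 siRNA and with tranylcypromine, and they disagreed in sign with rfk siRNA.

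Direct comparison of the treated arrays separated the genes in a similar way. Between tranylcypromine and aof2 siRNA, Ccne1 stood at 0.61 on its brightest probe set and 0.15 on the other. Cdkn1b stood at -0.53, Ccnd1 at 0.29 and Ccne2 at -0.14. Rb1 stood at 0.35 on its brightest probe set but at -0.36 on its dim second one. Between rfk siRNA and aof2 siRNA, Ccne2 stood at 0.64 and Rbl1 at 0.48, while Ccnd1 stood at -0.08 and Cdkn1b at 0.02. Between tranylcypromine and rfk siRNA, Ccne2 stood at -0.78, Cdkn1b at -0.55, Rbl1 at -0.39 and Ccnd1 at 0.37. Ccne2 and Rbl1 thus had higher signals with rfk siRNA than with either aof2 siRNA or tranylcypromine.

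Partners and upstream regulators of these genes were described by lists of their names, with no test. On brightest probe sets 0 of 8 CDK genes and their activators passed 1.5-fold in any comparison. The medians were -0.03, 0.03 and -0.007 with aof2 siRNA, rfk siRNA and tranylcypromine. Other probe sets above the filter did pass it: Cdk7 reached 0.88, 0.68 and 0.98 in the same order, and Cdk6 0.85 with rfk siRNA. With tranylcypromine Cdc37 reached -0.62 and Cdc25a -0.59. The CDK4 and CDK6 partners of cyclin D differed from each other: Cdk6, singled out after its values were seen, had signals of 1043, 1052 and 1106 against 766 in control, with log2 differences of 0.45, 0.46 and 0.53, and Cdk4 gave -0.17, 0.20 and 0.02. All 3 Cdk6 probe sets above the filter were above control in each treated array, by 0.29 to 0.85. Of 10 E2F and DP factors 1, 2 and 2 passed 1.5-fold on brightest probe sets, and the medians were -0.16, 0.09 and -0.04. Over all genes compared, 9.14%, 7.72% and 12.3% passed it in either direction. The gene counted with aof2 siRNA was E2f4, at -0.76, with a signal of 46.0, below the filter, against 77.8 in control. E2f2 and E2f6 made up both other counts. E2f2 stood at -0.69 with rfk siRNA and 0.62 with tranylcypromine, from signals of 69.1 and 171 against 112 in control. A further E2f2 probe set gave 1.34 with aof2 siRNA, 0.14 with rfk siRNA and 2.20 with tranylcypromine. E2f6, a repressor of the family, had signals of 507, 564 and 784 against 369 in control, with log2 differences of 0.46, 0.61 and 1.09. A further E2f6 probe set gave 0.39, -0.34 and -0.28, so its direction was not shared with rfk siRNA or tranylcypromine. The 6 other CDK inhibitors and pocket proteins had 0 past 1.5-fold and medians of 0.09, -0.08 and -0.05. Among these Rbl2, the gene of p130, stood at 0.14, 0.15 and -0.26, and Cdkn1a, the gene of the inhibitor p21, at 0.04, -0.31 and 0.01.

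Regulators of protein turnover and transcription held some genes past 1.5-fold, where 9.14%, 7.72% and 12.3% of all genes compared passed it in either direction with aof2 siRNA, rfk siRNA and tranylcypromine. In the list of 14 ubiquitin ligase parts and regulators, 1, 0 and 2 genes passed it on brightest probe sets with aof2 siRNA, rfk siRNA and tranylcypromine. The medians were -0.12, 0.06 and -0.08. Skp2, which encodes the ligase subunit that marks p27 protein for degradation, had signals of 2697, 4817 and 2239 in these arrays, against 3387 in control. Its log2 differences were -0.33, 0.51 and -0.60, and its 6 probe sets lay between -0.45 and -0.16, between -0.08 and 0.68, and between -0.75 and -0.13. Skp2 mRNA and Cdkn1b mRNA were therefore both below control with tranylcypromine. Of 19 transcription factors known to act on G1 genes, 2, 2 and 1 passed 1.5-fold on brightest probe sets, with medians of -0.02, 0.02 and -0.07. Each of these counts includes Mycn, the only gene counted with tranylcypromine. Its signals were 83.1, 146 and 60.3 in the treated arrays, against 14.1 in control, which lies below the filter. Mycn was thus compared only through the treated arrays, and no fold was read from it. The immediate early gene Fos stood at 0.53, 1.17 and 0.11, from a control signal of 193.

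On their brightest probe sets, genes that depend on E2F for their transcription lay below control with aof2 siRNA, as did markers of dividing cells. All 26 measured replication genes of this kind did so, with a median of -0.21, where 50.7% of all genes compared were below control. Of the 26, 2 passed 1.5-fold, both lower, where 2.88% of all genes compared were that much lower and 9.14% passed it in either direction. They were Cdc6 at -0.998 and Cdc45 at -0.64, both needed to start replication. Other probe sets above the filter reached 0.10 for Mcm5, 0.08 for Tyms and 0.02 for Uhrf1 with aof2 siRNA. With rfk siRNA 9 of 26 were below control and the median was 0.03, and with tranylcypromine 19 of 26 were and it was -0.13, with Cdc6 at -0.61. The MuvB and B-Myb list holds MuvB genes together with Mybl1, Mybl2 and Foxm1. On brightest probe sets 8 of 8 were below control with aof2 siRNA (median -0.28), 4 of 8 with rfk siRNA (-0.03) and 8 of 8 with tranylcypromine (-0.18). In the same order 3, 0 and 1 of them passed 1.5-fold, all lower. Over all genes compared, 2.88%, 3.8% and 4.77% were that much lower. The 3 with aof2 siRNA were Mybl1, Mybl2 and Foxm1, all dim, with signals of 116, 118 and 160 against 193, 204 and 276 in control. Another Foxm1 probe set above the filter stood at only -0.11 with aof2 siRNA. Other probe sets of this list reached 0.25 for Lin9 with aof2 siRNA, and 0.30 for Foxm1 and 0.05 for Rbbp4 with tranylcypromine. The 4 compared cyclin and CDK genes of S, G2 and M phase had medians of -0.30, -0.05 and -0.17, the 8 proliferation markers -0.35, -0.04 and -0.24, and the 11 other cyclins -0.19, -0.07 and -0.12. On brightest probe sets 1 gene of these 3 lists passed 1.5-fold, Ccnj among the other cyclins, at -0.61 with tranylcypromine. With tranylcypromine 4.77% of all genes compared were that much lower. Other probe sets above the filter passed it too, all lower. With aof2 siRNA these reached -0.85 for Ccnf, -0.69 for Ccng1 and -0.59 for Ccng2. With rfk siRNA they reached -0.98 for Bub1 and -0.61 for Ccng2, and with tranylcypromine -0.86 for Ccnf and -0.91 for Ccny. Single genes of these lists lay as low as Ccne2, which stood at -0.65 with aof2 siRNA and -0.78 with tranylcypromine: Cdc6 was lower with aof2 siRNA, and Mybl1, named after its values were seen, stood at -0.74 and -0.77. Medians of lists that hold co-regulated genes are descriptions of these arrays, and the share of dividing cells in each culture was not measured.

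**Figure D4:**
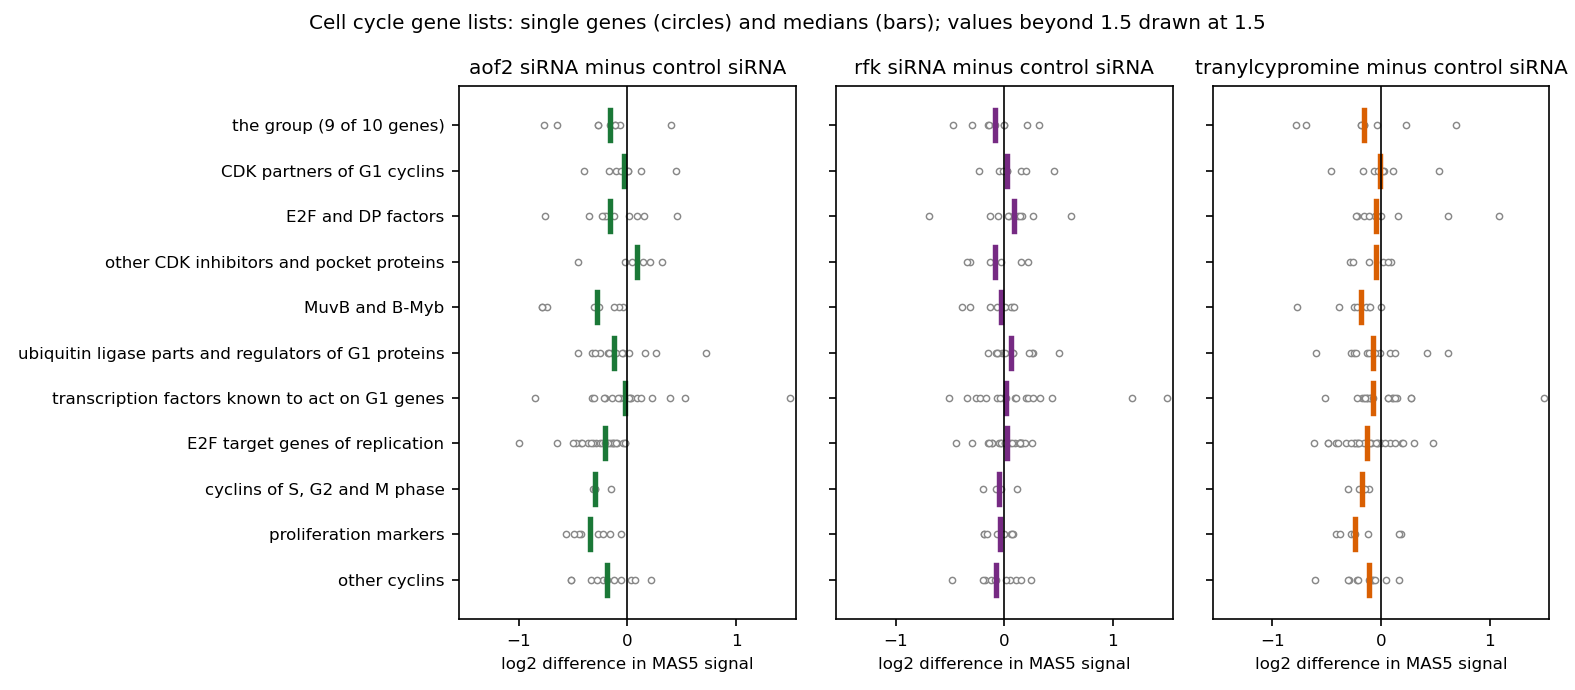
Log2 difference in MAS5 signal from control siRNA (x axis) for the 9 compared genes of the group and for 10 lists of cell cycle genes (rows) in the aof2 siRNA, rfk siRNA and tranylcypromine arrays. Circles are the brightest probe sets of single genes above the filter, bars are list medians, and values beyond 1.5 are drawn at 1.5. With aof2 siRNA all circles of the E2F target and proliferation lists lie left of 0, and with rfk siRNA most medians lie close to 0.

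Genes with patterns most like those of the members were found by the root mean square distance over the 3 log2 differences, which share the control array. For Ccne2 these were Lrr1 (distance 0.01), Gba2 (0.05) and the Myb family gene Mybl1 (0.06), with Lrr1 at -0.66 with aof2 siRNA and -0.77 with tranylcypromine. For Ccnd1 they were Akap1 (0.02), Bicdl1 (0.03) and Pafah2 (0.03). For Cdkn1b they were Rad18 (0.04), 2610524H06Rik (0.04) and 1110006O24Rik (0.05), and for Ccne1 they were Prelid2 (0.04), Spon2 (0.05) and Man2a1 (0.05). Each of these patterns rests on 3 values.

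The direction of the larger differences did not hinge on the scaling of the arrays, but some depended on the probe set or on the control array. Ccnd1 with tranylcypromine kept values of 0.45 to 0.84 under the 9 other ways of processing that gave it a value, Ccne2 with tranylcypromine -0.85 to -0.57 under 8, and Cdkn1b with tranylcypromine -1.71 to -0.59 under 9. Ccne2 with aof2 siRNA lay between -0.72 and -0.38 and Ccne1 with aof2 siRNA between -0.84 and -0.29. Some of these settings could not move a value: changes of the filter left all of them as they were. For Ccne2, with a single probe set, the settings on probe sets did so too. With the 3 other arrays averaged as the reference in place of control, Ccnd1 stood at 0.07 with aof2 siRNA and -0.04 with rfk siRNA, and Ccne1 with tranylcypromine at 0.25. With either siRNA Ccnd1 was thus above the control array but near the average of the 3 other arrays. That average includes the tranylcypromine array and the other siRNA array, each of which also had Ccnd1 above control.

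**Figure D5:**
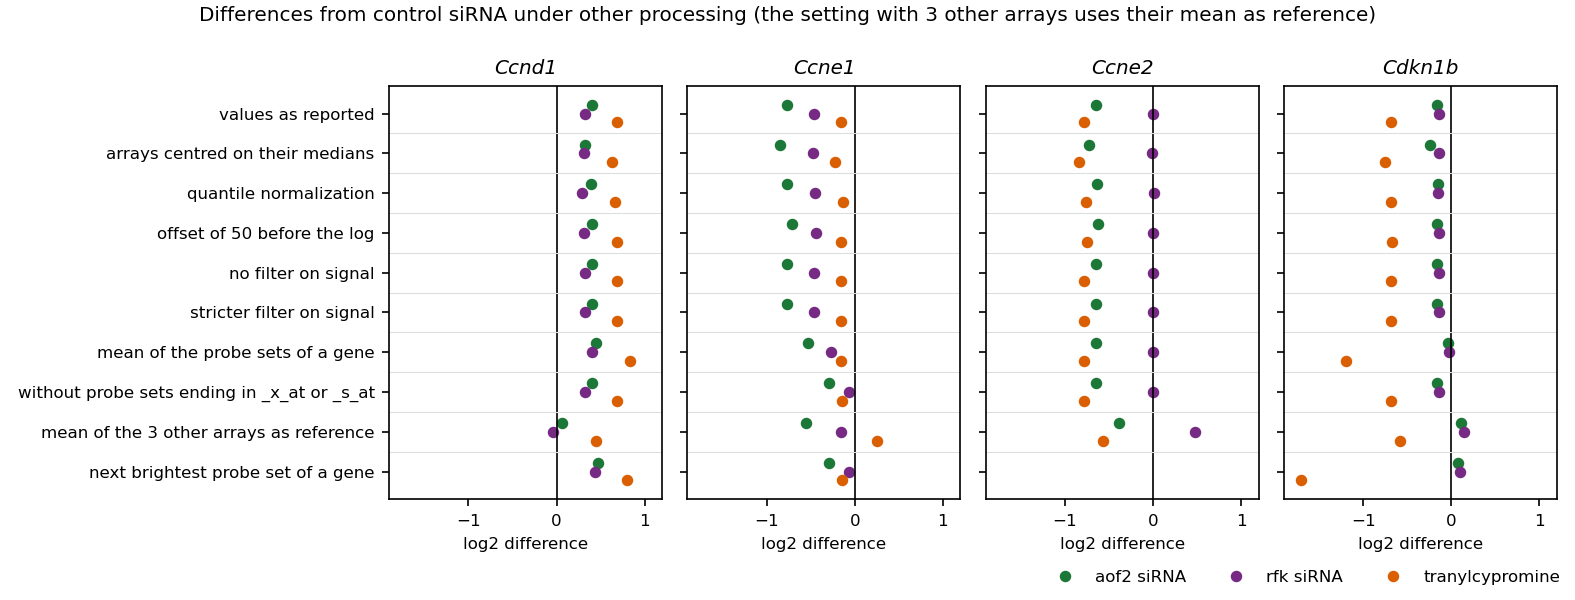
Log2 differences (x axis) of Ccnd1, Ccne1, Ccne2 and Cdkn1b under each way of processing (rows), for aof2 siRNA (green), rfk siRNA (purple) and tranylcypromine (orange). All rows are differences from control siRNA except the one that averages the 3 other arrays as the reference; a missing point means that the gene had no such probe set. Ccnd1 stays right of 0 and Cdkn1b and Ccne2 left of 0 with tranylcypromine in every row that has a point.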

How the data were processed

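The authors deposited one linear intensity per probe set of an Affymetrix 3' expression array, a signal computed with MAS5, per the submitters' processing notes. Not given in the sources used here were its version, detection calls and scaling target. With 2% of probe sets trimmed at either end, the mean was 500.003 on every array, so these intensities were already scaled per array. Per the labels' protocols, 250 ng of total RNA went into labelling. Signals were converted to log2 without an offset. A single gene symbol was annotated to 34958 of 45101 probe sets, several symbols to 932, which were not used, and none here to 9211. The number of arrays, 4, limits the precision, and there was no replicate. The named genes were the 10 listed ones with all their probe sets, the targeted genes, per list and comparison up to 2 higher and 2 lower genes past 1.5-fold whose brighter array reached a signal of 414, and the 3 nearest genes of each listed gene past 2-fold, which only Cdkn1c reached, so that none are given because its signals lie below the filter. Nearest genes of those past 1.5-fold were added after values were seen, and other singled-out genes are said to be so or belong to the lists. The members, the lists and the fold rules were chosen with earlier results of these data known, and they give no independent support to a pattern. Alternatives were median centring, quantile normalization, an offset of 50, no filter and a stricter filter, the mean of a gene's probe sets, leaving out probe sets named _x_at or _s_at, the 3 other arrays averaged as reference, and 1.5-fold. The next brightest probe set was added after the values were seen. The steps were tested on simulated data. Python 3.11.15, NumPy 2.4.6, pandas 2.3.3 and matplotlib 3.10.9 were used.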

Additional observations from a re-analysis of the deposited data

How the results depend on the processing

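The count of genes at least 2-fold from control was 0 of 9 in each comparison and stayed 0 under centring, quantile normalization, the offset, the stricter filter, the removal of _x_at and _s_at probe sets, and the 3 other arrays as reference. Without a filter on signal it was 1 with aof2 siRNA and 1 with tranylcypromine, in both cases Cdkn1c. With the mean of a gene's probe sets it was 1 with tranylcypromine, Cdkn1b at -1.20, and with the next brightest probe set, which 6 genes had above the filter, it was also 1, Cdkn1b at -1.71. At 1.5-fold it was 2 with aof2 siRNA, 0 with rfk siRNA and 3 with tranylcypromine. The medians over the genes depended on the probe sets and on the reference. With the next brightest probe set, over the 6 genes that had one, they changed sign, to 0.020 with aof2 siRNA and 0.047 with rfk siRNA. With the mean of a gene's probe sets they were -0.065 and -0.021, and against the 3 other arrays they were -0.045 with rfk siRNA and -0.0035 with tranylcypromine. Otherwise each median kept its sign and moved by no more than 1.5 times. Of 234 single-gene values, 14 moved by more than the typical gap between probe sets of a gene, and 5 of these 14 changed sign: Ccnd1 (-0.04) and Ccne2 (0.47) with rfk siRNA and Ccne1 with tranylcypromine (0.25) against the 3 other arrays, and Rb1 with aof2 siRNA (0.40) and Rbl1 with rfk siRNA (-0.33) with the next brightest probe set. In all 17 values changed sign, each from a difference under 1.5-fold. The 5 differences past 1.5-fold gave 43 values under the alternatives, of which 0 changed sign. Many of these values could not change. Leaving out the filter or making it stricter returned the same value for every compared gene. The removal of _x_at and _s_at probe sets altered only Ccne1, and the mean of probe sets could not alter Ccne2, which has 1 probe set. The cause of these shifts was not tested, apart from the use of other probe sets or another reference. No paired analysis was possible because each group had 1 array, and no array could be left out for the same reason. MAS5 sets no floor, so signals below the filter, such as those of Cdkn1c, support no fold.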

Other observations

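Some dim probe sets of these genes lay below the filter, and no difference was taken from them. A pair of Rbl1 probe sets had signals of 40.3 and 13.6 with aof2 siRNA, 20.2 and 24.5 with rfk siRNA and 3.95 and 3.33 with tranylcypromine, against 20.5 and 23.2 in control. A pair of Ccnd3 probe sets had signals of 73.6 and 7.19 with aof2 siRNA, 32.9 and 16.1 with rfk siRNA and 36.8 and 15.1 with tranylcypromine, against 51.7 and 16.2 in control.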
